A study of Homo sapiens with 7 samples.

Results

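The adhesion genes described here are 10 genes that mark the epithelial and mesenchymal states of cells, chosen by name: the cadherins CDH1, CDH2 and CDH3, the surface protein EPCAM, the claudin CLDN6, the filament protein VIM, the transcription factors ZEB1, ZEB2 and SNAI2 and the ligand TGFB2. All 10 were found among the 19775 genes of the table. They were measured by poly(A) RNA sequencing in 7 samples of wild-type H1 cells, a widely used human embryonic stem cell line, and every sample was grown in the defined medium E8, which supplies FGF2 and TGFβ. The kinase inhibitor XMD892, used in the study as a tool against ERK5 to judge by its title, was present at 1 µM for 12 h in 1 sample, for 24 h in 2 samples and for 48 h in 2 samples, and the 2 untreated E8 samples were harvested at 48 h only. The 24 h and 12 h samples therefore differ from E8 in harvest time as well as in treatment, and these cannot be told apart. The 3 comparisons with E8 also share its 2 libraries.

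Values are normalised read counts, which are gene read counts divided by 1 factor per library, and the labels do not say whether replicates came from separate cultures, so a p-value here covers the spread between the sampled libraries alone. The libraries held between 18528689 and 24148186 reads on the listed genes. The log2 difference between the 2 E8 libraries followed transcript GC content, with a Spearman correlation of -0.64 across 16023 genes, which are not independent replicates, against 0.21 for the pair at 48 h and -0.00 for the pair at 24 h. Each result that rests on E8 is therefore given without either E8 library where that changes it. All 10 pluripotency markers examined were present, with a summed level of 200554 to 227915 in E8, 200186 at 12 h, 203978 to 214921 at 24 h and 193599 to 211351 at 48 h. In bulk RNA, a change in the number of cells that express a gene and a change in RNA per cell cannot be told apart.

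As background, epithelial cells adhere through E-cadherin, the product of CDH1, whose cytoplasmic tail binds catenins, and seal their contacts with claudins. In the epithelial-mesenchymal transition, factors of the SNAI and ZEB families repress CDH1 and other epithelial genes, N-cadherin (CDH2) and vimentin (VIM) are gained, and TGFβ ligands such as TGFB2 are classical inducers. Human pluripotent stem cells grow as epithelial colonies that depend on E-cadherin, and CLDN6 and EPCAM are commonly used as surface markers of these cells.

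The promoters of CLDN6, CDH2, VIM and TGFB2 are shown because these 4 genes are the ones that passed a test in at least 1 comparison. Each line gives the 250 bases before the RefSeq transcription start on GRCh38.p14, read 5′ to 3′ on the gene's strand, with capitals for a GC box, spelled GGGCGG or, on the opposite strand, CCGCCC, for a CCAAT box, spelled CCAAT or, on the opposite strand, ATTGG, and for a TATA box, spelled TATAAA on this strand only. CDH2 has 2 starts in the table, and the first is shown.
CLDN6 (chr16:3018184-3018433, - strand): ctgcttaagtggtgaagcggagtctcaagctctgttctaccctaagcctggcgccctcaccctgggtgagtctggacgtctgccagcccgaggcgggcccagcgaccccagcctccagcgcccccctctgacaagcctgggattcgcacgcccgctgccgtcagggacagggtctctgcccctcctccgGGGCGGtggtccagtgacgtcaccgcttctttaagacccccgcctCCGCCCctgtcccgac
CDH2 (chr18:28177131-28177380, - strand): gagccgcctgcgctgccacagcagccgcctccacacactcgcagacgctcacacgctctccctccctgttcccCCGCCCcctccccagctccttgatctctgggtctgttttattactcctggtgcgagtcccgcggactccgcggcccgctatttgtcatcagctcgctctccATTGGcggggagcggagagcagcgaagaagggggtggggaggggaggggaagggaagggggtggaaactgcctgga
VIM (chr10:17227991-17228240, + strand): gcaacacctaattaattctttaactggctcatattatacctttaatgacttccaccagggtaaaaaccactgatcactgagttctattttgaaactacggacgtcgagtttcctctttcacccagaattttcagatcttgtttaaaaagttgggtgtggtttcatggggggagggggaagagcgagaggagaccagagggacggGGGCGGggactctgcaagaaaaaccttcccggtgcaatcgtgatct
TGFB2 (chr1:218345086-218345335, + strand): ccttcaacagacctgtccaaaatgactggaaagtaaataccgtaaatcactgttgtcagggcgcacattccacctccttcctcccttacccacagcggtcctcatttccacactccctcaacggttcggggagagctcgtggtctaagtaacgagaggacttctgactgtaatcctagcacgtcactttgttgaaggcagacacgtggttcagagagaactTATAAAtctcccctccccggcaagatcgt
Counted back from the start, the CLDN6 window held GC boxes that begin at -61 and -16, the CDH2 window a GC box at -177 and a CCAAT box at -76, the VIM window a GC box at -46 and the TGFB2 window a TATA box at -29. Of 35116 RefSeq promoter windows of the same length, 42.6% held a GC box, 32.0% a CCAAT box and 6.8% a TATA box searched the same way. The E-box form bound by SNAI and ZEB factors, CACCTG on one strand and CAGGTG on the other, was in 17.5% of those windows and in none of the 4 printed. A match is only a description of letters. CDH1, CDH3, EPCAM and SNAI2 had no entry.

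Over 48 h of XMD892 the adhesion genes did not move as a block. TGFB2 was 4.77-fold lower than in E8, CDH2 1.47-fold higher and CLDN6 1.49-fold higher, while the 95% interval of CDH1 ran from -0.29 to 0.29 log2 units around a difference of 0.00. VIM was 3.70-fold higher at 12 h and 1.94-fold higher at 24 h, and at 48 h its difference from E8 did not pass the test. ZEB1, ZEB2 and SNAI2 were close to the limit of detection in every library. A gene passed the test at an adjusted p under 0.05 from limma, a linear model with a moderated variance, fitted to log2(normalised count + 1) of the 16351 genes with a mean of 10 or more and adjusted over all of them. The 3 transcription factors had lower means, so 7 of the 10 genes were tested. At 12 h against E8, 3 of the 7 passed, 2 higher and 1 lower, where 7.46% of all tested genes passed, 2.56% higher and 4.89% lower. At 24 h, 4 passed, 3 higher and 1 lower, where 16.2% of all tested genes passed, 8.66% higher and 7.56% lower. At 48 h, 3 passed, 2 higher and 1 lower, where 11.5% passed, 5.08% higher and 6.45% lower. With 7 genes, these are counts and no more.

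**Figure D1:**
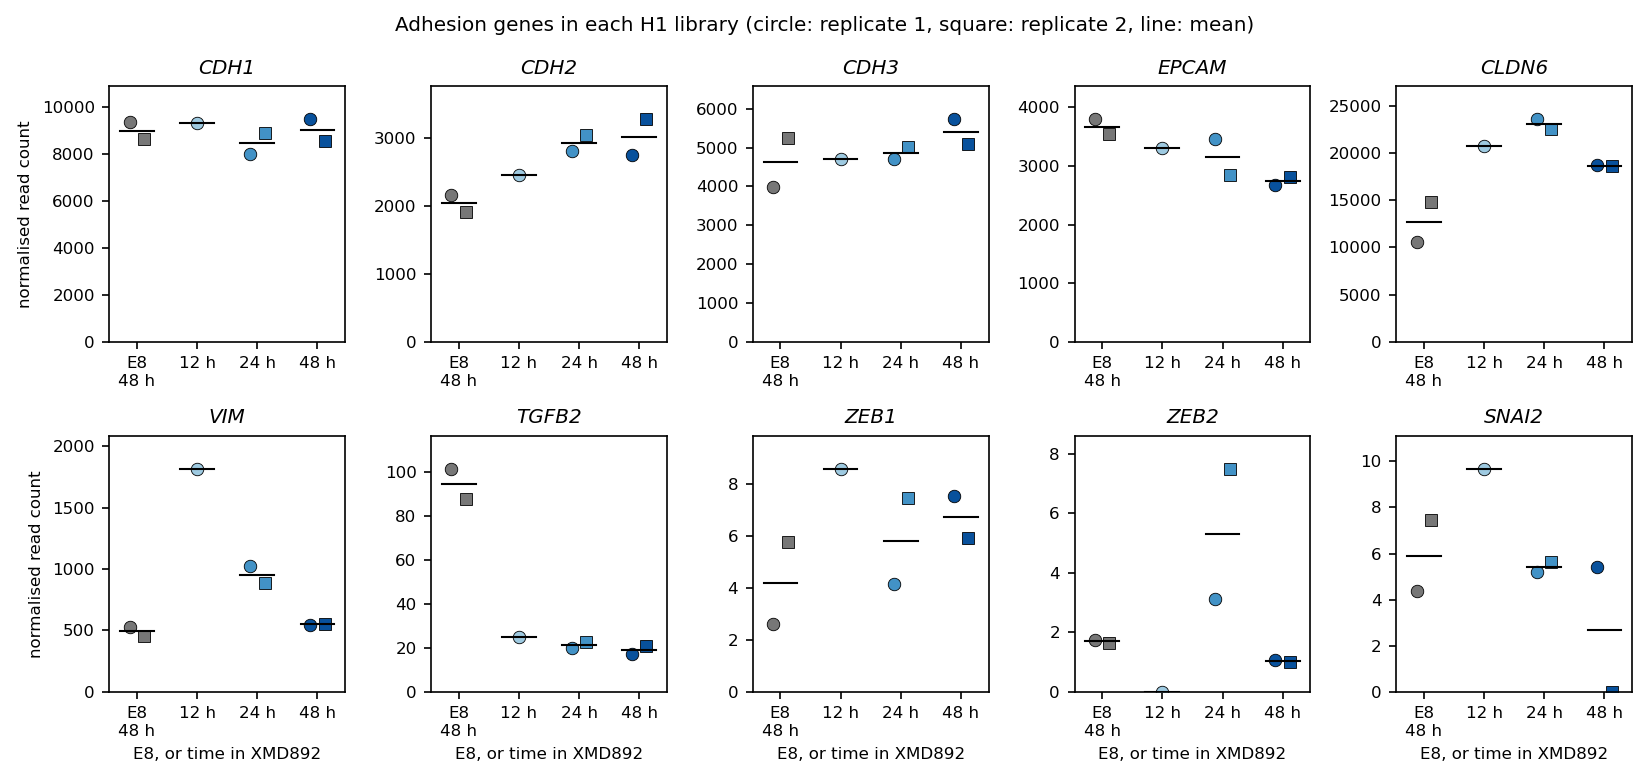
Normalised read count (vertical axes, linear from 0, a scale per gene) of the 10 adhesion genes in each library; the horizontal axis gives E8 and the hours in XMD892, circles are replicate 1, squares replicate 2 and lines group means. TGFB2 lies at 17.3 to 24.7 in the 5 XMD892 libraries, VIM is highest in the 12 h library at 1813, and CDH1 lies between 8011 and 9470 in all 7.

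CDH1 encodes E-cadherin, the adherens junction cadherin of epithelia (chr16:68737225-68835548, + strand, GENCODE 29 on GRCh38). In normalised counts, E8 had 9349 and 8633, the 12 h library 9298, the 24 h libraries 8011 and 8904, and the 48 h libraries 9470 and 8532. The groups overlapped, and the 48 h mean of 9001 ± 663 stood beside 8991 ± 506 in E8 (SD, n = 2 each). The log2 fold change against E8 was 0.05 at 12 h with a 95% interval of -0.31 to 0.41, -0.09 at 24 h with an interval of -0.38 to 0.20 and 0.00 at 48 h with an interval of -0.29 to 0.29 (limma adjusted p = 0.9, 0.71 and 1). These intervals are not adjusted for the number of genes tested. A change of CDH1 large enough to leave 0 outside its interval could still have failed the test. How large a change could have passed, with 1 library at 12 h and 2 in the other groups, was not worked out. Per kilobase of exon, CDH1 and EPCAM had 1456 and 1457 normalised counts in E8. Exon length here joins the exons of all annotated transcripts of a gene. It is not the length of the expressed transcript, so levels per kilobase compare genes only roughly.

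CDH3, which encodes P-cadherin, lies beside CDH1 on the same strand (chr16:68636189-68722616). It had normalised counts of 3981 and 5255 in E8, of 4700 in the 12 h library, of 4710 and 5007 after 24 h and of 5725 and 5085 after 48 h. The E8 pair spanned the 12 h and 24 h values, and the groups at 48 h and in E8 overlapped. The log2 fold change at 48 h was 0.24 ± 0.15 (SE, limma adjusted p = 0.34), and it was 0.44 with an adjusted p of 0.013 without E8 replicate 2 and 0.04 with an adjusted p of 0.91 without E8 replicate 1. It was 0.04 at 12 h and 0.09 at 24 h (adjusted p = 0.93 and 0.74), and both turned negative without E8 replicate 1, at -0.16 and -0.11.

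EPCAM encodes an epithelial cell adhesion protein (chr2:47345158-47387601, + strand). Counts were 3796 and 3545 in E8, 3301 in the 12 h library, 3455 and 2842 after 24 h, and 2681 and 2821 after 48 h. Both 48 h libraries lay below both E8 libraries, with means of 2751 ± 98.5 at 48 h and 3670 ± 178 in E8 (SD, n = 2 each). The log2 fold change of -0.42 ± 0.15 (SE) did not pass the test at 48 h (limma adjusted p = 0.067), nor did those of -0.15 at 12 h and -0.23 at 24 h (adjusted p = 0.67 and 0.31). The 48 h difference passed with DESeq2 (adjusted p = 0.047), after removal of the trend of each library along GC content (adjusted p = 0.023) and without E8 replicate 2 (adjusted p = 0.011), and its size lay between -0.46 and -0.34 under all 22 alternatives. EPCAM thus lay on one or the other side of the threshold, depending on the fit.

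CLDN6 encodes claudin 6, a tight junction protein (chr16:3014712-3020071, - strand), and it was the most abundant of the 10 genes per kilobase of exon, at 10720 normalised counts at 48 h and 7294 in E8. The E8 libraries had 10535 and 14834 normalised counts, the 12 h library 20730, the 24 h pair 23534 and 22496 and the 48 h pair 18718 and 18566. All 5 XMD892 libraries lay above both E8 libraries, and the 24 h pair was the highest. Against E8 it was higher by a log2 fold change of 0.73 ± 0.19 at 12 h (SE, limma adjusted p = 0.021), 0.88 ± 0.16 at 24 h (adjusted p = 0.00074) and 0.58 ± 0.16 at 48 h (adjusted p = 0.019).

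The 2 E8 libraries differed for CLDN6 by more than any replicate pair of XMD892 libraries did, and CLDN6 transcripts have a GC content of 59.2%, the highest of the 7 tested adhesion genes. Without E8 replicate 1 the 48 h difference was 0.33 (limma adjusted p = 0.13), and without 48 h replicate 1 or 2 it was 0.57 and 0.58 (adjusted p = 0.12 and 0.099). With the trend along GC content removed it was 0.50 (adjusted p = 0.0048), and 0.44 (adjusted p = 0.03) when E8 replicate 1 was left out as well. The 24 h difference passed under all 22 alternatives, at 0.63 to 1.13. The 12 h difference passed under all but the fit of only the groups compared (adjusted p = 0.073). CLDN6 shares 40 exonic bases with TNFRSF12A on the opposite strand, which had 573 to 1697 normalised counts over the 7 libraries, and how strand was handled in the counting is not given.

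**Figure D2:**
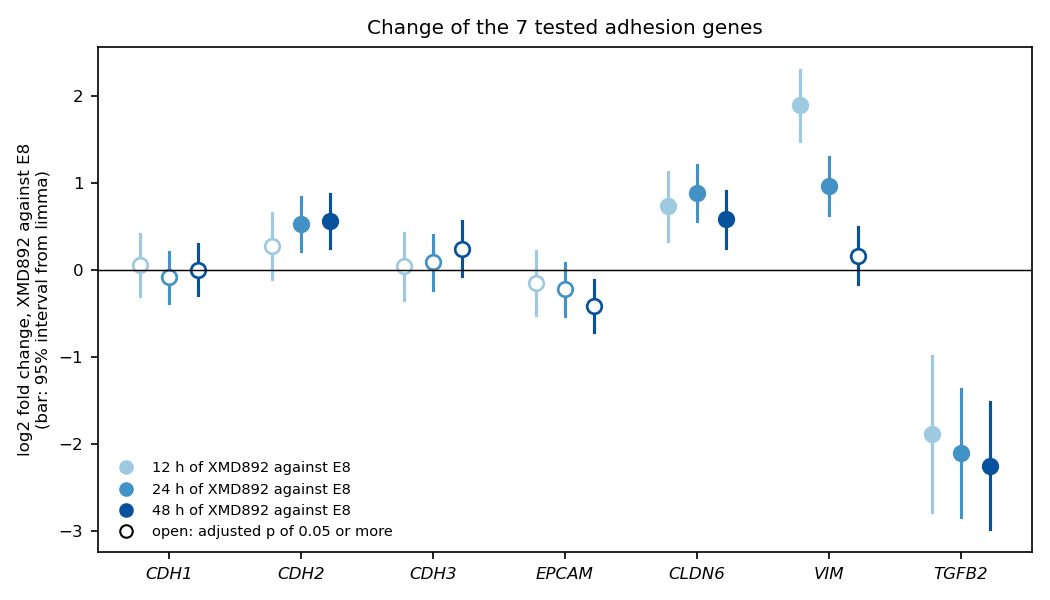
Log2 fold change against E8 (vertical axis) of the 7 tested adhesion genes at 12, 24 and 48 h of XMD892, with bars for limma's 95% interval; filled points passed at an adjusted p under 0.05. TGFB2 lies between -2.25 and -1.89 at all 3 times, VIM goes down with time, 1.89 at 12 h, 0.96 at 24 h and 0.16 at 48 h, and CDH1 lies at 0 within its intervals.

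CDH2 encodes N-cadherin, the cadherin of neural and mesenchymal cells (chr18:27950966-28177446, - strand). It had 2164 and 1910 normalised counts in E8, 2457 in the 12 h library, 2809 and 3038 after 24 h and 2743 and 3269 after 48 h. All 5 XMD892 libraries lay above both E8 libraries, and the 24 h and 48 h pairs overlapped each other. The difference in log2 was 0.27 ± 0.18 at 12 h (SE, limma adjusted p = 0.4), 0.52 ± 0.15 at 24 h (adjusted p = 0.02) and 0.56 ± 0.15 at 48 h (adjusted p = 0.016). Leaving out 48 h replicate 2 took the 48 h difference to 0.43 (adjusted p = 0.22), and leaving out 24 h replicate 1 or 2 gave 0.58 and 0.47 at 24 h (adjusted p = 0.092 and 0.18). Both differences passed without either E8 library, at 0.47 to 0.65 at 48 h and 0.43 to 0.61 at 24 h. Summed over 2 neural marker genes, normalised counts were 33.2 to 53.7 in E8 and 46.2 in the 12 h library. The sum was 44.9 to 45.8 after 24 h and 81.0 to 116 after 48 h, and CDH2 was higher than in E8 at both times. In each group only 1 of the 2 genes had a mean of 10 or more. The part of such cells in the CDH2 difference was not tested.

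Set against each other within a library, CDH1 had more normalised counts per kilobase of exon than CDH2 in every library. The size of such a ratio depends on the exon lengths used, while its change between libraries does not. The ratio of CDH1 to CDH2 was 3.46 and 3.62 in E8, 3.03 in the 12 h library, 2.29 and 2.35 after 24 h and 2.77 and 2.09 after 48 h. All XMD892 libraries had a lower ratio than both E8 libraries, and the level of CDH1 itself did not pass a test at any time. VIM lay below CDH1 per kilobase of exon in all libraries. The ratio of CDH1 to VIM was 14.9 and 15.8 in E8 and 4.28 in the 12 h library. After 24 h it was 6.52 and 8.43, and after 48 h 14.5 and 13.0.

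VIM encodes vimentin, the intermediate filament of mesenchymal cells (chr10:17228259-17237593, + strand). The counts were 525 and 457 in E8, 1813 in the 12 h library, 1026 and 882 after 24 h and 546 and 549 after 48 h. The 12 h library was the highest, the 24 h pair lay between it and the rest, and the 48 h pair lay just above the E8 pair. Against E8 the log2 fold change was 1.89 ± 0.20 at 12 h (SE, limma adjusted p = 1.9e-06), 0.96 ± 0.16 at 24 h (adjusted p = 0.00044) and 0.16 ± 0.16 at 48 h (adjusted p = 0.56). The 12 h and 24 h differences passed under all 22 alternatives, at 1.79 to 2.01 and 0.85 to 1.12, and the 48 h difference under none of them, at 0.06 to 0.28. The 12 h value rests on 1 library, and its error is borrowed from the other groups.

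VIM was also lower at 48 h than at 24 h of XMD892, at -0.79 ± 0.16 (SE, limma adjusted p = 0.012). No E8 mean enters this difference, but the E8 pair adds to the shared variance estimate behind its error and p-value. VIM was the only one of the 7 tested adhesion genes to pass there, where 1.2% of all tested genes passed, 0.856% as lower. It was lower at 24 h than at 12 h, at -0.93 ± 0.20 (adjusted p = 0.037), again as the only one of the 7, with 0.391% of all tested genes passing, 0.128% as lower. The first call was lost without 24 h replicate 1 (adjusted p = 0.28), 48 h replicate 1 (0.17) or 48 h replicate 2 (0.094). The second was lost without any single 24 h or 48 h library (adjusted p between 0.061 and 0.15) and with replicate numbers as a block (adjusted p = 0.073). The direction stayed the same under all 22 alternatives, at -0.90 to -0.69 and -1.04 to -0.82. VIM shares 641 exonic bases with VIM-AS1 on the opposite strand, which had 2.98 to 15.9 normalised counts.

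Of the transcription factors known to repress E-cadherin, ZEB1, ZEB2 and SNAI2 were barely detected. ZEB1 (chr10:31318495-31529814, + strand) had 3 and 7 reads in E8, 8 in the 12 h library, 4 and 8 after 24 h and 7 and 6 after 48 h, or 43 reads in all. SNAI2, which encodes SLUG (chr8:48917604-48921740, - strand), had 5 and 9 reads in E8, 9 in the 12 h library, 5 and 6 after 24 h and 5 and 0 after 48 h, or 39 in all. ZEB2 (chr2:144364364-144524583, - strand) had 2 and 2 reads in E8, 0 in the 12 h library, 3 and 8 after 24 h and 1 and 1 after 48 h, or 17 in all.

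These reads set a limit on what can be said of ZEB1, ZEB2 and SNAI2. Per kilobase of exon their group means were 0.49 to 0.99 normalised counts for ZEB1, 0.80 to 2.85 for SNAI2 and 0 to 0.21 for ZEB2, against 1369 to 1505 for CDH1. ZEB2 had 0 reads at 12 h and SNAI2 had 0 in 48 h replicate 2. The limit of detection, set at 3 reads, is 3.22 and 2.98 normalised counts in these libraries. The exact 95% Poisson upper bound for a count of 0 is 3.69 reads, by counting error only. With no filter on low values, none of the 3 genes passed in any of the 5 comparisons (limma adjusted p between 0.32 and 0.97). The single unadjusted p under 0.05 was that of ZEB2 at 24 h against 12 h (0.049, adjusted 0.51). At this depth only a large difference in these 3 genes could have passed, and how large was not worked out. ZEB1 and ZEB2 also share exonic bases with antisense genes.

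TGFB2 encodes transforming growth factor β2, a secreted ligand of the TGFβ receptors (chr1:218346235-218444619, + strand). It had 101 and 87.6 normalised counts in E8, 24.7 in the 12 h library, 19.8 and 22.4 after 24 h and 17.3 and 20.8 after 48 h. Every XMD892 library lay below both E8 libraries by more than the spread within any pair, and the 3 treated groups lay close together. Against E8 the log2 difference was -1.89 ± 0.43 after 12 h (SE, limma adjusted p = 0.0088), -2.11 ± 0.35 after 24 h (adjusted p = 0.00044) and -2.25 ± 0.35 after 48 h (adjusted p = 0.0002). These calls stood under all 21 alternatives that tested the gene, at -1.99 to -1.74 for 12 h, -2.21 to -1.91 for 24 h and -2.38 to -2.05 for 48 h. Neither step between treated times passed, with -0.14 at 48 h against 24 h and -0.22 at 24 h against 12 h (adjusted p = 0.92 and 0.9). TGFB2 shares 1371 exonic bases with TGFB2-OT1 on the same strand, and reads from these bases cannot be assigned to one of them.

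Other genes were nearest to these patterns by the root mean square difference of log2 values centred on each gene's mean, over 7 samples and 11366 genes with a mean of 100 or more. ABHD12B was nearest to TGFB2, at 0.18 log2 units where TGFB2 itself varied by 0.97, with 274 and 265 normalised counts in E8, 71.9 in the 12 h library, 52.1 and 56.1 after 24 h and 58.3 and 46.6 after 48 h. FAR2 and HHLA1 followed, both at 0.24. RBM4 was nearest to CDH2, at 0.05 where CDH2 varied by 0.25, with 209 and 220 normalised counts at 48 h and 154 and 140 in E8, followed by RAB33B at 0.08. GM2A, C14orf166 and CTSC were nearest to CDH1, at 0.03, 0.03 and 0.04 where CDH1 varied by 0.08. These are descriptions over samples that share their libraries, with no test.

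Beyond these 10 genes, 9 lists of 175 other genes of adhesion, epithelial and mesenchymal state and TGFβ signalling were examined, of which 147 were tested. At 48 h against E8, 7 of the 147 were higher and 23 lower, or 20.4% in either direction beside the 11.5% of all genes. Without 48 h replicate 1 or 2, 13 passed each time (8.8%), beside 4.84% and 5.03% of all genes. Without E8 replicate 1, 24 passed (16.3%, beside 9.79% of all genes), and without E8 replicate 2, 46 passed (31.3%, beside 24.8%). The count over the lists and the share over all genes thus moved together when single libraries were left out. The lists with most lower genes were the mesenchymal matrix and surface genes, with 9 lower and 1 higher of 24 and a median of -0.40, and the TGFβ ligands, latency proteins, receptors and SMADs, with 8 lower and none higher of 27 and a median of -0.17. The median of all tested genes was 0.02. Without 48 h replicate 1 or 2 the lower genes were 5 of the mesenchymal list and 4 of the TGFβ list each time, where 3.47% and 3.51% of all genes were lower.

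**Figure D3:**
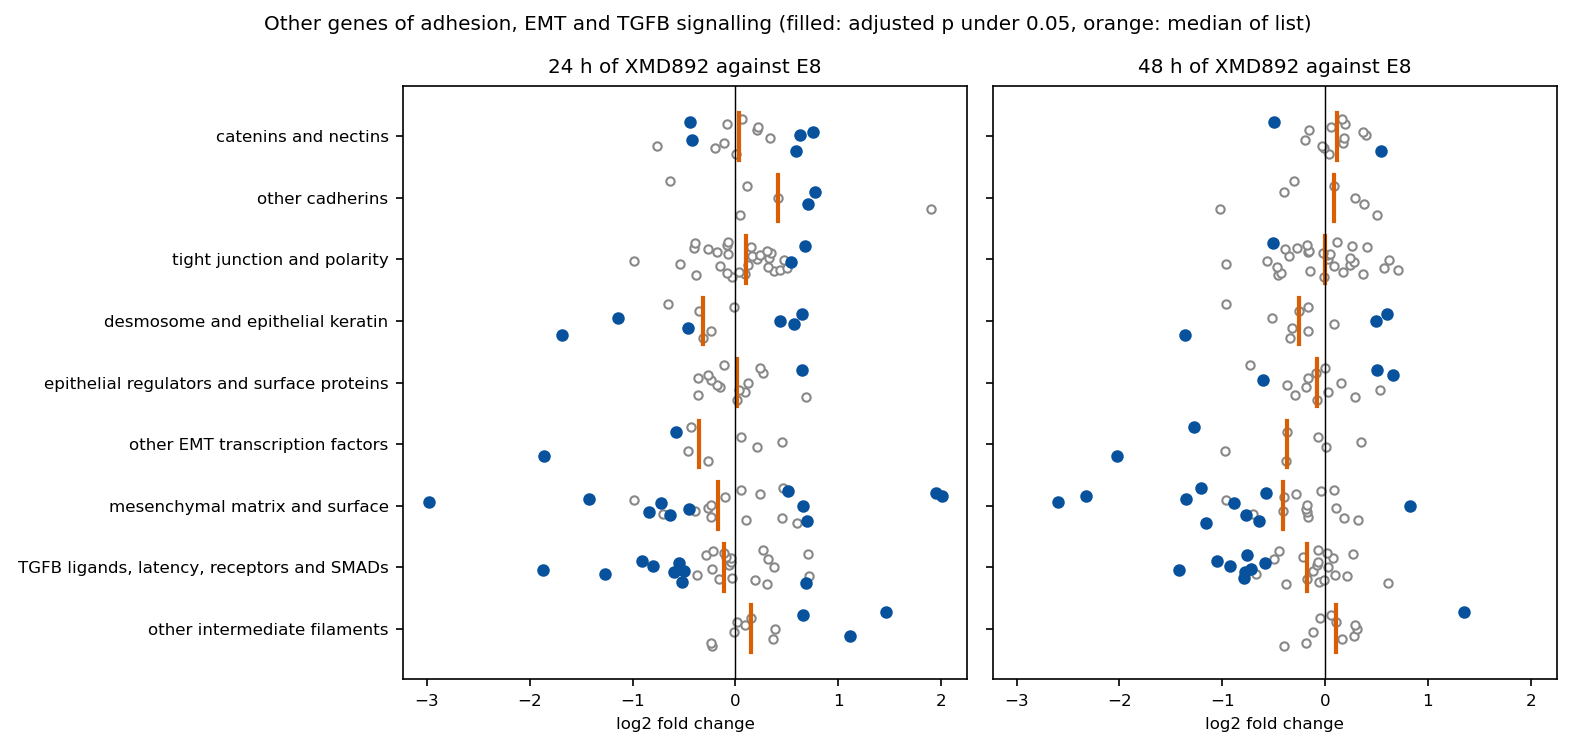
Log2 fold change (horizontal axis) of each tested gene of the 9 lists at 24 h and 48 h of XMD892 against E8; rows are lists, filled points passed at an adjusted p under 0.05 and orange bars are list medians. At 48 h the mesenchymal list has 9 filled points below 0 and 1 above, while at 24 h it has 6 below and 5 above.

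Among the mesenchymal genes, MMP9, a secreted gelatinase, had 17.3 and 26.8 normalised counts at 48 h against 106 and 173 in E8, a log2 fold change of -2.59 ± 0.37 (SE, limma adjusted p = 6.1e-05). PDGFRB, the PDGF receptor β, had 18.4 and 33.7 at 48 h against 63.7 and 66.9 in E8 (-1.35, adjusted p = 0.018). Of the rest, chosen after their values were seen, the collagens COL1A1 and COL6A1, the matrix protein TNC, the actin-binding TAGLN, the gelatinase MMP2 and the hyaluronan receptor CD44 were lower, at -1.20 to -0.58, and the collagen crosslinker LOXL2 was higher, at 0.83. FN1, which encodes fibronectin, had means of 6415 at 48 h and 7144 in E8 (adjusted p over 0.05).

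In the TGFβ list, SKIL, an inhibitor of SMAD signalling that TGFβ itself induces, had 1924 and 2688 normalised counts at 48 h against 5240 and 3577 in E8 (-0.93 ± 0.18 SE, limma adjusted p = 0.0015). SMAD6, an inhibitory SMAD, had 209 and 219 at 48 h against 385 and 513 in E8 (-1.05, adjusted p = 0.0012). NRROS, which anchors latent TGFβ1, had 61.6 and 21.8 at 48 h against 94.3 and 106 in E8 (-1.42, adjusted p = 0.02), with 48 h libraries far apart. TGFB1, chosen after its values were seen, averaged 105 at 48 h and 177 in E8 (-0.76, adjusted p = 0.031), TGFB3 19.4 and 15.3 (adjusted p = 0.75), and the receptors TGFBR1 2045 and 2025 (adjusted p = 0.96) and TGFBR2 251 and 345 (adjusted p = 0.13). The lower genes of this list held a ligand, a transducer (SMAD3) and inhibitors of the pathway alike.

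The 5 lists of cadherin, cadherin partner, junction, keratin and epithelial regulator genes held 77 tested genes. Of these, 2 were higher and 3 lower at 12 h, or 6.5% beside 7.46% of all genes. At 24 h 11 were higher and 5 lower, or 20.8% beside 16.2%. Of those at 24 h, only NECTIN1, DSC3 and KRT7 kept their call when any replicate was left out. At 48 h 5 were higher and 4 lower, or 11.7% beside the 11.5% of all genes. The higher genes at 48 h all lost their call without E8 replicate 1. The genes that follow are those of 48 h. Of 14 catenins and nectins, the partners of the cadherins, ARVCF was higher (0.54) and VCL, which encodes vinculin, lower (-0.50). CTNNB1, which encodes β-catenin, averaged 11339 at 48 h and 10013 in E8 (limma adjusted p = 0.45). None of 7 other cadherins passed at 48 h, and of 30 tight junction and polarity genes 1 was lower. Among 11 desmosome and keratin genes, the simple-epithelial keratins KRT8 (0.60) and KRT19 (0.50) were higher and the desmosomal cadherin DSC3 lower (-1.36). Of 15 epithelial regulators and surface proteins, RAB25, a vesicle GTPase (0.67), and SPINT2, a protease inhibitor (0.50), were higher and the transcription factor OVOL1 lower (-0.61). Of 8 other EMT transcription factors GSC (-2.02) and TWIST2 (-1.27) were lower, and SNAI1 averaged 118 in both groups (adjusted p = 0.98). Adjusted p-values of those that passed lay between 0.00083 and 0.049.

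Of the 18 list genes named by rule at 48 h, 8 lost their call without E8 replicate 1 (limma adjusted p 0.056 to 0.28), 10 without 48 h replicate 1 (0.065 to 0.26) and 11 without 48 h replicate 2 (0.063 to 0.34). ARVCF, DSC3, KRT19, RAB25, SPINT2 and OVOL1 were lost each time, and so were KRT8 and PDGFRB without E8 replicate 1 or 48 h replicate 1 and NRROS, VCL and GSC without 48 h replicate 2. SKIL was lost without 48 h replicate 1. GSC and OVOL1 were lost without E8 replicate 2 (0.060 and 0.061) and KRT19 and OVOL1 without either 24 h library (0.050 to 0.056). With DESeq2, OVOL1, SPINT2, PDGFRB and NRROS did not pass (0.052 to 0.076). MMP9, SMAD6, TWIST2 and SYNM kept their call in all these fits.

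Of the list genes named beside the rule at 48 h, COL6A1 and MMP2 passed when any library was left out. TNC and LOXL2 were lost without 48 h replicate 1 (limma adjusted p = 0.0504 and 0.067), and COL1A1 and SMAD3 without either 48 h library (0.063 to 0.16). TAGLN was lost without E8 replicate 2 or either 48 h library (0.053 to 0.18), and CD44 and TGFB1 without E8 replicate 2 or 48 h replicate 2 (0.073 to 0.36). LTBP3, a latent TGFβ binding protein, was lost without 48 h replicate 2 (0.094).

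Keratins and the filaments related to vimentin are given by time. KRT8 had 13166 and 17215 normalised counts in E8, 18195 in the 12 h library, 25354 and 21940 after 24 h and 24499 and 21223 after 48 h. It was higher at 24 h than in E8, with a log2 difference of 0.65 (limma adjusted p = 0.0073), a call lost without 24 h replicate 1. KRT18 (0.57) and KRT19 (0.44) were also higher at 24 h, and both calls were lost without that library. The KRT19 call (limma adjusted p = 0.047) was also lost without E8 replicate 1, 24 h replicate 2 or either 48 h library. In all, 15 alternatives ended it. KRT7 went the other way and was lower at 24 h (-1.14, adjusted p = 0.0027), a call that stood when any replicate was left out. At 12 h KRT7 was lower too (-0.95, limma adjusted p = 0.049), a call lost without E8 replicate 2 or either 48 h library. With other settings counted as well, 12 alternatives ended this call. Of 11 other intermediate filament genes, 6 were higher and none lower at 12 h, with a list median of 0.75 beside 0.02 over all genes, 3 were higher at 24 h and 1 at 48 h, where 2.56%, 8.66% and 5.08% of all genes were higher at 12, 24 and 48 h. Without E8 replicate 2 the 48 h count was 4, beside 14.6% of all genes. At 12 h these were SYNM (2.16), LMNA (1.51), NES (1.22), NEFH (0.96), NEFM (0.77) and INA (0.75), which encode synemin, lamin A/C, nestin, 2 neurofilament subunits and internexin, and their calls stood when any E8, 24 h or 48 h library was left out. The NEFH call did not pass under 4 other alternatives. At 24 h the higher ones were SYNM, LMNA and NES, and the NES call (0.65) was lost without E8 replicate 1 or 24 h replicate 1. SYNM, a filament protein that partners vimentin, was the one also higher at 48 h, with 124 and 118 normalised counts at 48 h against 38.4 and 57.0 in E8 (1.35, adjusted p = 0.0011).

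The mesenchymal list is given by time in the same way. At 12 h against E8, 7 of its 24 genes were higher and 4 lower, at 24 h 5 and 6, and at 48 h 1 and 9. Of all genes, 2.56% were higher and 4.89% lower at 12 h. The shares were 8.66% higher and 7.56% lower at 24 h, and 5.08% higher and 6.45% lower at 48 h. Without 24 h replicate 1 the 24 h counts were 2 and 2, beside 3.22% and 3.54% of all genes. TAGLN, which encodes the actin-binding transgelin, had 474 and 621 normalised counts in E8, 4847 in the 12 h library, 2227 and 1988 after 24 h and 379 and 348 after 48 h. Its log2 difference was -2.53 at 48 h against 24 h (limma adjusted p = 6.7e-09) and -1.20 at 24 h against 12 h (adjusted p = 0.0094). TNC, which encodes tenascin C, had 61.1 and 71.9 in E8, 352 in the 12 h library, 84.4 and 100.1 after 24 h and 25.9 and 30.7 after 48 h, with -1.67 and -1.93 for the same steps (adjusted p = 0.0012 and 0.0094). TAGLN, TNC and VIM were all highest in the 12 h library, and at 48 h TAGLN and TNC lay below E8, by -0.58 and -1.20 (adjusted p = 0.024 and 0.0044).

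Of the 147 list genes, 8 were lower and 1 higher at 48 h than at 24 h, or 6.1% beside the 1.2% of all genes, and 2 were lower at 24 h than at 12 h, or 1.4% beside 0.391%. Without E8 replicate 1 or 2 the counts were 28 (19.0%, beside 6.39% and 6.26% of all genes) and 15 (10.2%, beside 4.49% and 4.34%). The lower ones at 48 h included TAGLN, TNC, COL1A1 (-1.34), CD44 (-1.76), CDH6 (-1.17), LMNA (-0.83) and SMAD7 (-0.81), and the higher one was RAB25 (0.94). The calls of COL1A1, TNC and TAGLN stood when any library was left out. That of CD44 was lost without 48 h replicate 2 (limma adjusted p = 0.17), that of RAB25 without 48 h replicate 1 (0.20), and those of CDH6, LMNA and SMAD7 without 24 h replicate 1 or either 48 h library (0.059 to 0.28).

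**Figure D4:**
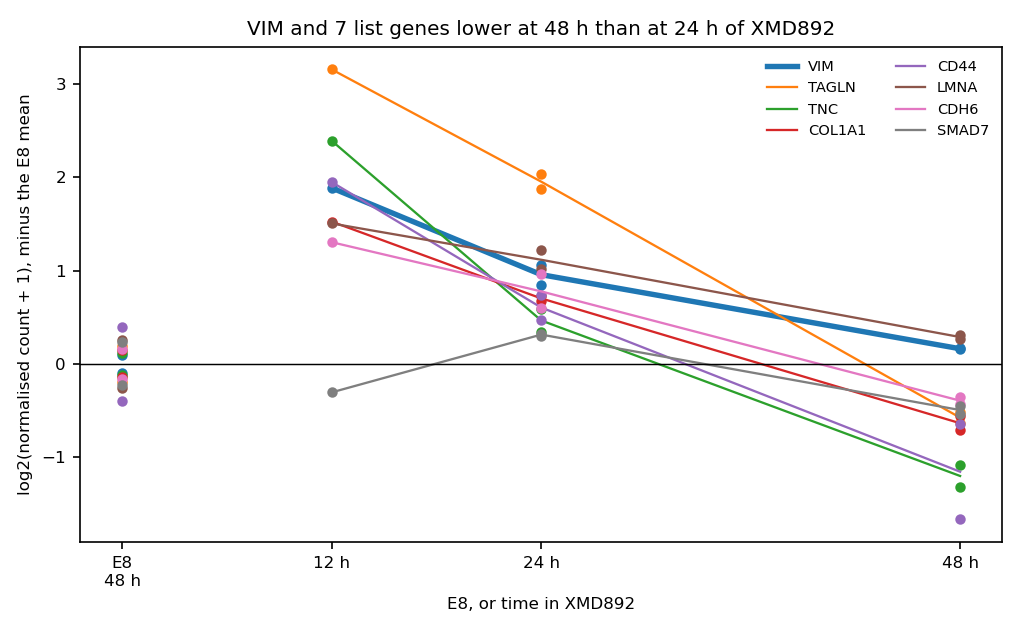
Log2(normalised count + 1) minus the mean of the 2 E8 libraries (vertical axis) for VIM and 7 of the list genes that were lower at 48 h than at 24 h, against hours in XMD892, with E8 harvested at 48 h drawn at the left; points are libraries and lines join group means. VIM and TAGLN are highest at 12 h, at 1.89 and 3.16, while SMAD7 is not.

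At 12 h against E8, 16 of the 147 list genes were higher and 15 lower, or 21.1% beside 7.46% of all genes, and at 24 h 20 and 21, or 27.9% beside 16.2%. The 12 h count was 49 (33.3%, beside 18.0% of all genes) without E8 replicate 2, and the 24 h count was 13 (8.8%, beside 6.76%) without 24 h replicate 1. In the TGFβ list, 6 of 27 genes were lower at 12 h and 8 at 24 h (4.89% and 7.56% of all genes), and FBN1, which encodes fibrillin, was the 1 higher at both. NRROS (-2.24 and -1.87), SMAD6 (-1.37 and -0.91), SKIL (-0.73 and -0.80), SMAD3 (-0.65 and -0.55) and LTBP3 (-0.99 and -0.60) were lower at 12 h and at 24 h, and also at 48 h. FBN1 lost its 24 h call without either 24 h library (adjusted p = 0.063 and 0.22). Without 24 h replicate 1 the 24 h count of lower genes was 3 and without 24 h replicate 2 it was 5, where 3.54% and 5.38% of all genes were lower. SMAD6 and SMAD3 stood at adjusted p-values of 0.057 and 0.29 without 24 h replicate 1, and SKIL at 12 h was lost without E8 replicate 1 (0.086). LTBP3 lost its 24 h call, and SMAD3 its 12 h call, in several fits that left out 1 library (limma adjusted p of 0.11 to 0.17, and 0.053 to 0.062).

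Markers of other cell types were counted in the same libraries. Of 11 fibroblast and mesenchyme markers 5 were analysed here, with a summed normalised count of 6931 to 8174 in E8, 6900 in the 12 h library, 7688 to 8606 after 24 h and 7508 to 8513 after 48 h. One of these 5, COL1A1, had 1534 normalised counts in the 12 h library and a mean of 535 in E8, a log2 difference of 1.53 (limma adjusted p = 5.3e-05). COL1A1 was also higher than in E8 at 24 h (0.70) and lower at 48 h (-0.64). PDGFRB, another of the 5, was lower at 24 h (-1.43) and at 48 h (-1.35). COL1A2, PDGFRA and THY1 passed against E8 at none of the times. COL1A1 is a small part of the sum, which did not rise with it at 12 h. The sum mainly follows the most abundant of the 5 genes and does not show how many mesenchymal cells were present. The 3 endothelial markers analysed summed to 146 to 192 in E8, 99.8 in the 12 h library, 103 to 108 after 24 h and 95.2 to 104 after 48 h. The 4 trophoblast and amnion markers analysed summed to 277 to 349 in E8, 125 in the 12 h library, 81.2 to 92.6 after 24 h and 112 to 147 after 48 h. The 2 neural markers analysed summed to 33.2 to 53.7 in E8 and 46.2 in the 12 h library. Their sum was 44.9 to 45.8 after 24 h and 81.0 to 116 after 48 h, and CDH2 was higher than in E8 at both times. Definitive endoderm markers (2 analysed) summed to at most 58.9 in any library. The part of such cells in the changes of TGFB2, CDH2, CLDN6 and VIM was not tested.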

How the data were processed

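Poly(A) RNA of 7 H1 samples was read paired-end on an Illumina NextSeq instrument. Per the submitters' processing notes the tools were Trimmomatic 0.36, STAR, featureCounts 1.5.3 and DESeq2 1.26.0 with the hg38 genome. Which step each served, any filter, the gene annotation and how strand was handled are not given in the sources used here. The table deposited by the authors holds 1 signal value per gene symbol and library, a read count scaled by a single factor for that library. In 100% of values, division by the library's smallest step came within 0.1 of a whole number, so reads were recovered. The 2 columns of the table that match no sample were used in no step.

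Genes with a mean of 10 or more (16351) were taken to log2 with a pseudocount of 1. A model with a mean for each group was fitted across the 7 libraries in limma 3.58.1 (R 4.3.3, trended prior, 3 residual and 18.4 prior degrees of freedom), with Benjamini-Hochberg adjustment over all tested genes and a threshold of 0.05. A group of 1 library is assumed to vary like the others. Fold changes of low genes are understated on this scale. Symbols were matched to GENCODE 29 (97.7%) and promoters to RefSeq on GRCh38.p14.

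The adhesion genes and the 9 lists were chosen with earlier results of these data known, so their counts are not independent evidence. List genes are named by rule when called at 48 h against E8, at most 3 per list by size of change, and 2 of the 18 are counted but not reported here by name; likeness was ranked over genes with a mean of 100 or more. Counts of 3 or fewer reads are treated as the limit of detection. Alternatives were other pseudocounts, filters and scalings, count tests on the recovered reads (edgeR 4.0.16, DESeq2 1.42.0), robust moderation, only the groups compared, a replicate block, a GC trend removed (loess, span 0.3; GC content for 98% of tested genes) and each replicate left out. The GC trend with 1 E8 library left out was added after seeing the data. Intervals from counts cover counting error only.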

Additional observations from a re-analysis of the deposited data

Results flagged for a closer look

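VIM differed between the times of XMD892, at -0.79 on the log2 scale for 48 h against 24 h (limma adjusted p = 0.012) and at -0.93 for 24 h against 12 h (adjusted p = 0.037). The difference from the same E8 libraries therefore differed between these times by a test of that difference itself, and time in XMD892 and harvest time cannot be told apart in it. All libraries of the later time lay below those of the earlier one, which is a single library at 12 h.

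RAB25 was higher at 48 h than at 24 h, at 0.94 (limma adjusted p = 0.0082), with 1019 and 894 normalised counts at 48 h against 524 and 474 at 24 h.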

How the results depend on the processing

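Of 765 values of single genes recomputed under other settings, 719 kept their direction and side of the threshold, 16 lost a call, 6 gained one and 24 changed sign, all of the last in genes that had not passed. The number of adhesion genes that passed ranged from 1 to 5 at 48 h against E8 when 1 library was left out (1 without 48 h replicate 2, 5 without E8 replicate 2), and was 0 in place of 1 at 48 h against 24 h without 24 h replicate 1 or either 48 h library, and at 24 h against 12 h without any single 24 h or 48 h library. With replicate numbers as a block, alone or with the GC trend removed, 0 in place of 1 passed at 24 h against 12 h; the block changed no other such count by more than 1.5 times, and same-numbered samples did not deviate together (correlations of -0.071, -0.048 and -0.035), so the numbers were not taken as pairs. CDH1 at 48 h changed sign at the same total (-0.0166), under quantile normalization (-0.0192), with DESeq2 (-0.0103), without E8 replicate 2 (-0.0566; -0.058 with the GC trend removed) and without 48 h replicate 1 (-0.0744, up to 0.0761 without 48 h replicate 2). It did so at 24 h with the GC trend removed and without E8 replicate 1 (0.0339), and at 12 h without E8 replicate 2 (-0.0078, up to 0.1071 without E8 replicate 1; -0.0132 with the GC trend removed). CDH3 changed sign without E8 replicate 1, alone and with the GC trend removed, at 24 h (-0.1139 and -0.0712) and 12 h (-0.1611 and -0.0755), with 0.2865 and 0.2393 without E8 replicate 2, and at 24 h against 12 h under the block (-0.0056; -0.0247 with the GC trend removed). CDH2 at 48 h against 24 h changed sign with the GC trend removed, also under the block or without either E8 library (-0.0109 each time), and without 24 h replicate 1 (-0.0208) or 48 h replicate 2 (-0.0908, up to 0.1623 without 48 h replicate 1). At 24 h against 12 h, EPCAM did so under the block with the GC trend removed (0.0183) and without 24 h replicate 2 (0.0659, down to -0.2157 without 24 h replicate 1), and CLDN6 under the block with the GC trend removed (-0.0146). The cause was not tested. The filter at a mean of 50 gave no value for TGFB2, whose mean was 42.0. No scaling moved the median of all genes by more than 0.1. Depth limits ZEB1, ZEB2 and SNAI2, and the groups have 1 library at 12 h and 2 otherwise.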
